A study of Mus musculus with 4 samples.

Results

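The experiment asked how the prostate of mice lacking Rb1 differs from wild-type prostate in RNA levels. It used 2 of the 4 two-colour Agilent arrays of the study, those of the group called null here, chosen by genotype. Each null mouse was Rb1F/F:Trp53F/F:PB-Cre4, 60 days old, on a mixed C57BL/6:129/SVJae:FVB background. Both alleles of Rb1 and of Trp53 were therefore conditional, and PB-Cre4 is a Cre driven by the probasin promoter, which is active in prostate epithelium and not in the other cells of the tissue. Labels in the deposit name these animals control mouse 1 and 2, so they are controls for the other genotype of the study and not wild type. Red (Cy5) signal came from 1 null mouse and green (Cy3) signal from a pool of prostate RNA from 3 wild-type mice, whose age and strain are not given in the sources used here. The other 2 arrays, with the same pool, held mutant mice of genotype Rb1R654W/F:Trp53F/F:PB-cre4, in which 1 Rb1 allele codes for an altered protein. Null and mutant values share the pool RNA, and so do the values of both null mice, so the pool enters every ratio given here. The null mice differ from the pool in Trp53 and Cre as well as in Rb1, and these cannot be told apart here.

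The retinoblastoma protein, encoded by Rb1, binds E2F transcription factors and holds back the genes for DNA replication until a cell commits to divide. The p53 protein, encoded by Trp53, arrests or kills cells with damaged DNA, and loss of both genes in prostate epithelium is a standard mouse model of aggressive prostate cancer. The organ is a secretory gland of luminal and basal epithelial cells in smooth muscle and fibroblast stroma, and it lies against the seminal vesicles, which make most of the clotting proteins of semen. In bulk tissue, fewer cells of a type and less RNA per cell cannot be told apart.

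Values are log2 ratios of mouse over pool, so that 1 is a 2-fold difference and 0 means equal signal. Median red signal after background subtraction was 20.5 in null mouse 1 and 55.1 in null mouse 2. It was 90.1 in mutant mouse 1 and 81.9 in mutant mouse 2, while the pool channel was at 24.2 to 24.9. Probes well above background in the red channel numbered 22183 in null mouse 1 and 25047 in null mouse 2. Of the prostate markers, the secretory genes Pbsn, Msmb, Tgm4 and Defb50, 4 of 4 lineage factors, 3 of 3 luminal and 3 of 3 basal markers were above background in both null mice. So were 4 of 4 measured seminal vesicle markers and 4 of 4 macrophage markers. Of 3 adipocyte markers, 1 was above background in null mouse 1 and 3 in null mouse 2.

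With the processing used here no single gene passed the threshold against the pool, and the null mice agreed only weakly. In limma, 0 of 16826 genes (0%) had a Benjamini-Hochberg adjusted p under 0.05, and the smallest adjusted p was 0.0569. The count was 2 with a normexp offset of 0 and 1 with the filter taken from the null arrays. Before adjustment, p was under 0.05 for 873 genes above the pool (5.19%) and 796 below it (4.73%). With median centring in place of loess these were 1913 and 95, 95.3% of them above against 52.3%. They were 980 and 416 without null mouse 1, and 1927 and 1990 without null mouse 2, where 559 genes passed after adjustment. Both mice lay above 0 for 5136 genes (30.5%), both below 0 for 4321 (25.7%) and on opposite sides for 7369 (43.8%). Across genes, which are not independent replicates, the ratios of the null mice had a Pearson r of 0.148 and a Spearman rho of 0.161, and both ratios share the pool. With genes split by brightness into 3 equal groups, 39.8% of the brightest and 46.3% of the dimmest lay on opposite sides. Null mouse 1 was at least 1 above 0 for 541 genes (3.22%) and at least 1 below for 485 (2.88%). Null mouse 2 was at least 1 above 0 for 245 genes (1.46%) and at least 1 below for 80 (0.475%).

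**Figure D1:**
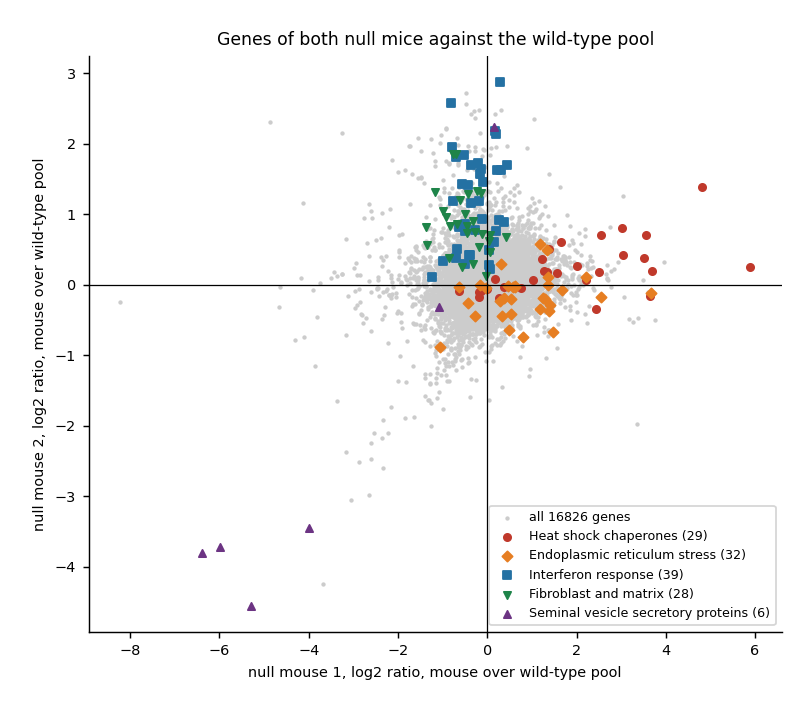
Each point is a gene, with the log2 ratio of null mouse 1 over the pool on the x axis and of null mouse 2 on the y axis, grey for all 16826 genes and coloured for 5 gene lists. Heat shock and endoplasmic reticulum stress genes spread along the x axis, interferon and matrix genes along the y axis, and 4 seminal vesicle genes stand in the lower left, below -3 in both mice.

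Seminal vesicle and other secretory genes were among those for which both null mice lay far below the pool. Both mice were at least 1 below 0 for 44 genes (0.262%) and at least 1 above 0 for 13 (0.0773%). Svs4, a seminal vesicle secretory protein of the semen clot, had ratios of -5.29 (null mouse 1) and -4.55 (null mouse 2), by a probe at chr2:164017992-164018051 (mm7). Its relatives Svs5, at -5.99 and -3.72, and Svs2, at -3.99 and -3.45, were also far below the pool in both mice. Pate4, a small secreted protein of seminal fluid, was at -6.39 and -3.81. In the mutant mice, measured against the same pool, Svs4 was at -4.13 and -2.50, Svs5 at -4.68 and -0.09, Svs2 at -4.03 and -0.79 and Pate4 at -5.53 and -0.79, so mutant mouse 2 stood nearer to the pool than both null mice for each of these 4 genes. Of 10 seminal vesicle genes on the array, 6 passed the filter on dim probes. Of these 6, 5 were below 0 in both null mice, beside 25.7% of all genes. The median of the 6 was -4.64 in null mouse 1 and -3.59 in null mouse 2, and without the filter the list's medians were -0.54 and -0.18. Ceacam10 was the other, at 0.15 and 2.24. Svs6 was at -1.09 and -0.32.

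The Svs genes are neighbours on chromosome 2, whereas Pate4 and Ceacam10 lie on other chromosomes. Probes of Wfdc15b, Svs2, Svs4, Svs6 and Svs5 lie within chr2:163955366-164075192 (mm7), a stretch of 119827 bases that held 5 measured genes. Of these 5, 4 were at least 1 below the pool in both null mice. Wfdc15b, of the family of whey acidic protein inhibitors, was at -2.59 and -2.47. Beside the stretch, Wfdc12 was at 0.56 and 0.23 and Slpi, a secreted protease inhibitor, at -1.06 and -0.65, with the red channel of Slpi below background in null mouse 1. Within 300000 bases on either side there were 17 measured genes, and no others were at least 1 below 0 in both mice.

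Other genes low in both mice had varied roles. Ms4a5, a membrane protein of the Ms4a family, was at -3.68 and -4.24, with the smallest adjusted p of all genes in limma (0.0569). Naip5, a sensor of bacterial flagellin, was at -2.64 and -2.99 (limma adjusted p = 0.0742). The mutant mice were as low for both genes, with Ms4a5 at -4.26 and -4.43 and Naip5 at -3.03 and -3.24. Cdo1, which breaks down cysteine, was at -3.06 and -3.05. Bpgm, which makes 2,3-bisphosphoglycerate, was at -3.16 and -2.37, and Pfkfb3, which controls the pace of glycolysis, at -2.86 and -2.51. Cyp4a12a, a fatty acid hydroxylase, was at -2.34 and -2.60, and the lectin gene Itln1 at -2.61 and -2.25. Second probes existed for 3 of the 12 genes named lowest in both mice, and 3 of 3 were below 0 in both: Bpgm at -3.81 and -2.82, Cyp4a12a at -2.05 and -2.39 and Pfkfb3 at -1.13 and -0.98. Outside the 12, the iron-binding secretory protein gene Ltf was at -2.36 and -2.17, and the secreted chaperone gene Clu at -2.33 and -1.91.

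Genes high in both mice were fewer and closer to the pool. Deptor, an inhibitor of mTOR, had ratios of 1.62 (null mouse 1) and 1.39 (null mouse 2). Ccn2, a matricellular growth factor, was at 3.03 and 1.25, and the chaperone gene Hsph1 at 4.81 and 1.38. Inhbb, a subunit of activin B and inhibin B, was at 1.09 and 1.08, by a probe at chr1:119276025-119276084 (mm7). In the mutant mice Inhbb was at 0.26 and 0.04, below both null mice, as were Hsph1 at 0.33 and 0.42, Ccn2 at 0.94 and 0.27 and Zfp367 at 0.69 and 0.61. Snrpe, a core spliceosome protein, was at 1.07 and 1.04, Zfp367, a zinc finger protein, at 1.22 and 1.00, and Lars2, the mitochondrial leucyl-tRNA synthetase, at 1.38 and 1.57. Klf2, a transcription factor best known in endothelium, was at 1.06 and 2.35. Some of these genes were as high as a null mouse in at least 1 mutant mouse, with mutant ratios of 3.80 and 1.95 for Klf2, 3.70 and 1.11 for Lars2, 1.19 and 0.76 for Snrpe and -0.60 and 1.46 for Deptor.

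Second probes did not bear out most of the high values. Of the 12 genes named highest in both mice, 6 had a second probe, and 2 of those 6 probes lay above 0 in both mice. Those 2 were much closer to 0 than the brighter probe, at 0.07 and 0.28 for Deptor and at 0.35 and 0.25 for Ptprg, a receptor phosphatase, against 1.16 and 1.19 by its brighter probe. The second Klf2 probe was at -0.55 and 0.42, and the second Pigt probe at -0.28 and -0.18 against 1.19 and 0.98. Hsph1, Lars2, Ccn2, Inhbb, Snrpe and Zfp367 had a single probe past the filter.

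**Figure D2:**
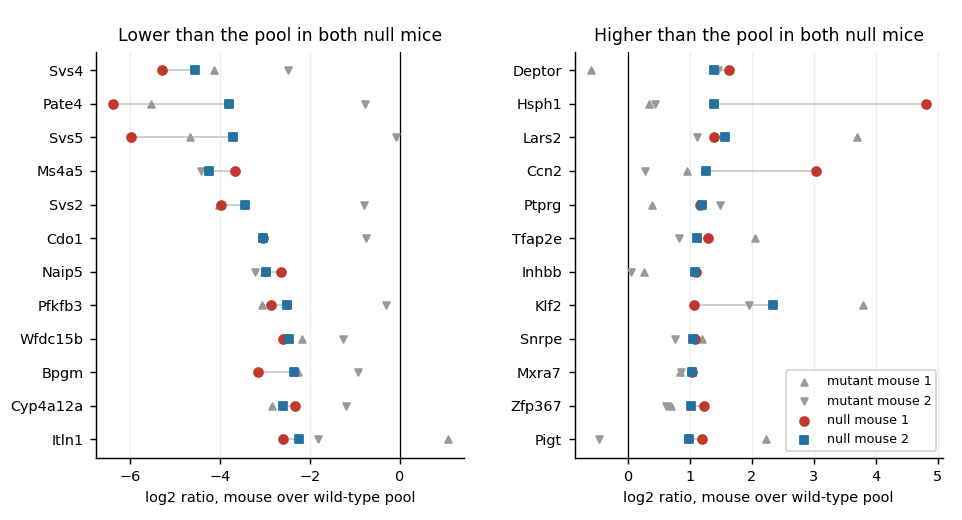
Points give the log2 ratio over the pool (x axis) of the 12 genes named lowest (left) and the 12 named highest (right) in both null mice, with null mouse 1 as red circles, null mouse 2 as blue squares and the mutant mice as grey triangles. The seminal vesicle genes Svs4, Svs5, Svs2 and Pate4 lie beyond -3 in both null mice, while the high genes other than Hsph1, Ccn2 and Klf2 sit between 0.98 and 1.62.

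Of 17 measured genes of the Rb family and the E2F factors, both null mice were above 0 for 9, below 0 for 1 and on opposite sides for 7, beside 30.5%, 25.7% and 43.8% of all genes. Rb1, read by a probe at chr14:67877318-67877377 (mm7), read 0.09 in the first null mouse and -0.87 in the second. Trp53 was at 0.53 and 0.08 by its brighter probe and at -0.05 and -0.40 by a second. Nothing in the sources used here places these probes inside or outside the deleted exons, so the values check no label. E2f3, an activating E2F, was at 1.52 and 0.68, and its other 2 probes at 0.48 and 0.11 and at 0.32 and -0.08. E2f2 was at 0.22 and 0.75, E2f1 at -0.30 and 0.36, and the Rb1 relatives Rbl1 at -0.22 and 0.35 and Rbl2 at -0.58 and 0.11. Cdkn1a, the cell cycle inhibitor that p53 induces, was at 1.11 and -0.71. Cdkn2a was too dim to be tested. In limma, the adjusted p of each gene in this paragraph was above the threshold.

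Among the null mice, genes of DNA replication, the classic targets of E2F, were above the pool mainly in null mouse 2. The 52 measured had a median of -0.07 in null mouse 1 and 0.43 in null mouse 2, against -0.01 and 0.03 over all genes. In the mutant mice their medians were 0.34 and 0.29, between the null mice, against 0.03 and 0.02 over all genes. Null mouse 2 was above null mouse 1 for 44 of the 52, where this held for 54.1% of all genes. The gap in that direction was at least 1 for 9 of the 52, beside 4.9% of all genes. Both mice were above 0 for 20 and below 0 for 4, beside 30.5% and 25.7% of all genes. The helicase subunits Mcm6, at 0.41 and 1.70, Mcm3, at 0.20 and 1.63, and Mcm4, at 0.06 and 1.31, were far higher in null mouse 2. The licensing factor gene Cdt1 was at -0.15 and 1.25, and Chaf1b, of the chromatin assembly factor, at -0.39 and 0.96. A few were close between the mice: Pcna, the sliding clamp, at 0.65 and 0.79, Ccne1, cyclin E1, at 0.56 and 0.87, Pola1, of the primase complex, at 0.48 and 0.74, and Uhrf1, which carries DNA methylation through replication, at 0.53 and 0.50. At an unadjusted p under 0.05, 7 of the 52 were higher and 0 lower, beside 5.19% and 4.73% of all genes.

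Mitotic genes did not follow the replication genes. The 37 measured had medians of -0.22 in null mouse 1 and -0.10 in null mouse 2 (0.08 with median centring in place of loess). Of the 37, 29 were above background in null mouse 1 and 37 in null mouse 2. Both mice were below 0 for 25 and above 0 for 2, beside 25.7% and 30.5% of all genes. Those 2 were Smc4, a condensin subunit, at 1.02 and 0.52, and Pttg1, securin, at 0.49 and 0.25, while a second Smc4 probe was at 0.28 and -0.05. Cdc25b, a phosphatase that starts mitosis, was at -0.63 and -0.44, and the spindle gene Nusap1 at -0.37 and -0.37. The condensin gene Ncaph was at -1.22 and -0.17, with its red channel below background in null mouse 1. The proliferation marker Mki67 was at -0.02 and -0.42.

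**Figure D3:**
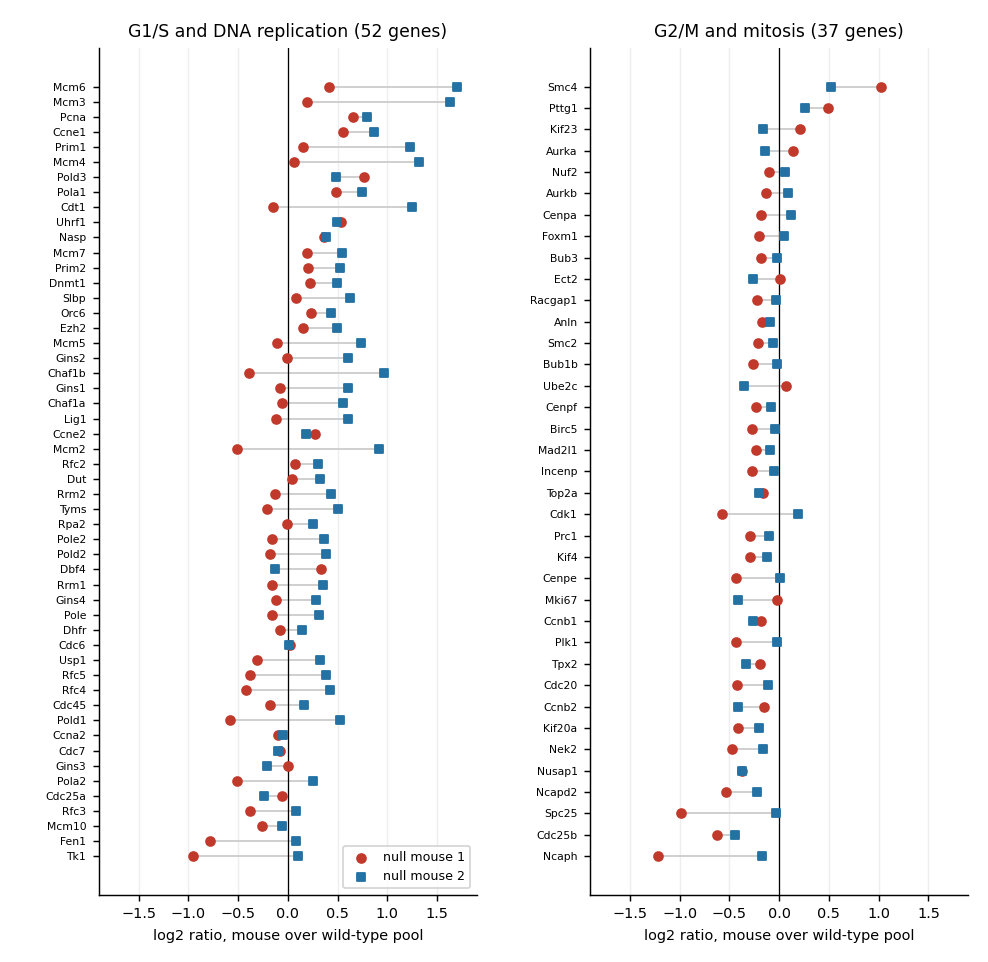
Each row is a gene and the x axis its log2 ratio over the pool, red circles for null mouse 1 and blue squares for null mouse 2, with 52 G1/S and DNA replication genes at left and 37 G2/M and mitosis genes at right. Blue squares of Mcm6, Mcm3 and Mcm4 lie beyond 1.3, with their red circles under 0.5, whereas 25 of the 37 mitotic genes sit below 0 in both mice.

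Chaperone genes were among those with the largest excess in null mouse 1. Heat shock proteins refold damaged proteins, and heat shock factor 1 switches on their genes when proteins unfold. Null mouse 1 was at least 1 above null mouse 2 for 520 genes (3.09%), and for 17 of the 29 heat shock genes measured. The list's median was 1.57 in null mouse 1 and 0.18 in null mouse 2, beside 0.01 and -0.01 in the mutant mice. In null mouse 1, 20 of the 29 were at least 1 above the pool, beside 3.22% of all genes. Hspa1a, the inducible member of the Hsp70 family, had ratios of 5.89 and 0.25 by a probe at chr17:33066911-33066970 (mm7), and its other 3 probes were at 4.78 and 0.14, 4.27 and -0.34, and 2.87 and -0.30. In the mutant mice Hspa1a was at 1.405 and -0.22 by the first probe. Its other 3 probes were at 1.56 and -0.34, 0.82 and -0.65, and -0.20 and -0.54 there. Values of Hspa1a may include its near-identical neighbour Hspa1b, since a probe can bind both. Dnaja1 and Dnajb1, partners of Hsp70, were at 3.69 and 0.20 and at 3.66 and -0.16. Hsp90aa1, the inducible form of Hsp90, was at 3.56 and 0.71, while its constitutive relative Hsp90ab1 was at 1.33 and 0.18. The small heat shock protein gene Hspb1 was at 3.50 and 0.37, and the mitochondrial chaperonin genes Hspd1 and Hspe1 at 3.05 and 0.42 and at 3.02 and 0.80.

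Some chaperone genes stayed near the pool in both mice. Cryab, Hspb8, Hspa2 and Fkbp4 lay between -0.20 and -0.02 in both mice, and Hsf1, the heat shock factor itself, was at 0.27 and -0.19. Both null mice were above 0 for 19 of the 29 and below 0 for 5, beside 30.5% and 25.7% of all genes. With median centring the list's medians were 1.64 and 0.98, while the brightest of the 3 groups of genes had medians of 0.02 and 0.79, so null mouse 1 stayed above null mouse 2 by 0.65.

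Promoters of the chaperone genes are shown for those that carry the core of the heat shock element, GAANNTTC, within the 250 bases before a start site, on either strand and in any window of the gene. RefSeq windows (GRCm38.p6) matched 23 of the 29 genes, and 8 of these 23 (34.8%) held the core, against 6.1% of the 11088 tested genes with a window. Each stretch reads 5′ to 3′ on the gene's strand with up to 15 bases around the core, which is in capitals.
Hspa1a: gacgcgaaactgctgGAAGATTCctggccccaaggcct
Hspb1: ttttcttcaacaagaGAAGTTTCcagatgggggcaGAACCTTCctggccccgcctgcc
Dnaja1: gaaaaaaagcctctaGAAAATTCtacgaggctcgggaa
Dnaja4: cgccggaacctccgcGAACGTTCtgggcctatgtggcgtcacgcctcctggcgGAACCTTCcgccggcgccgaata
Dnajb6: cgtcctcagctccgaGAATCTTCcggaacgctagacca
Hspd1: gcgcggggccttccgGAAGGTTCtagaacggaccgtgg
The Hspa1a stretch is chr17:34972238-34972275, minus strand, Hspb1 is chr5:135887787-135887844, plus strand, Dnaja1 is chr4:40722329-40722366, plus strand, Dnaja4 is chr9:54699454-54699529, plus strand, Dnajb6 is chr5:29735837-29735874, plus strand, and Hspd1 is chr1:55088049-55088086, minus strand. Hspd1 and Hspe1 are divergent neighbours and the same stretch, read on the other strand, lies before Hspe1. Hspb1 and Dnaja4 have 2 cores each. The eighth gene, Fkbp4, had 1 core and values of -0.15 and -0.09. The 8 genes with a core had a median of 3.04 in null mouse 1 and 0.39 in null mouse 2, and the others had 1.28 and 0.09. A match is a description of these letters and no evidence of binding, and no match says only that the letters are not in these windows.

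Endoplasmic reticulum stress genes were likewise higher in null mouse 1. This response raises chaperones and degradation factors when proteins misfold in the secretory pathway. The 32 measured had medians of 0.62 in null mouse 1 and -0.18 in null mouse 2 (0.79 and 0.75 with median centring). Of the 32, 14 were at least 1 above the pool in null mouse 1, beside 3.22% of all genes. The pro-death transcription factor Ddit3 was at 3.66 and -0.12, the kinase-like regulator Trib3 at 2.56 and -0.18, and Hspa5, the main chaperone of the compartment, at 2.22 and 0.10. Hyou1, an Hsp70 relative there, was at 1.19 and 0.57 and Sel1l, of the degradation complex, at 1.33 and 0.50. Calr, a calcium-binding chaperone, went the other way in both mice, at -1.07 and -0.88. The gap between the 2 medians was 0.80 with loess and 0.04 with median centring, so its size rests on how the arrays were scaled. Null mouse 1 had the higher median under each scaling tried. With median centring the brightest of the 3 groups of genes had medians of 0.02 and 0.79.

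The stress element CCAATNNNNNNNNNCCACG was found before 10 of 29 of these genes with a window (34.5%), against 0.2% of all tested genes, and 3 examples are shown with the motif in capitals.
Hspa5: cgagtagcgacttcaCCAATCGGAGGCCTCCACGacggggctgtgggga
Creld2: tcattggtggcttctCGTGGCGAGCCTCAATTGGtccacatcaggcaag
Syvn1: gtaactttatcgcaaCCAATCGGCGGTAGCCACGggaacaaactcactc
These are chr2:34772010-34772058, plus strand for Hspa5, chr15:88819505-88819553, plus strand for Creld2, where the motif is on the opposite strand, and chr19:6046517-6046565, plus strand for Syvn1 (GRCm38.p6). Creld2 was at 1.68 and -0.07 and Syvn1, a ubiquitin ligase, at 1.25 and -0.19. The 10 genes with the element had a median of 0.54 in null mouse 1 and those without had 0.80. In null mouse 2 these medians were -0.05 and -0.21.

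Other genes with a large excess in null mouse 1 had varied roles. Slc7a11, the cystine importer, was at 3.61 and -0.10, and Srxn1, which repairs oxidised peroxiredoxins, at 3.07 and -0.18. These 2 are in a list of 26 oxidative stress and metallothionein genes, whose medians were 0.20 and 0.08. Of the 26, 4 were at least 1 above the pool in null mouse 1, beside 3.22% of all genes. Tnfrsf12a, the receptor of TWEAK, was at 3.77 and -0.51. Gad2, which makes the transmitter GABA, was at 3.26 and -0.53, the lipid transporter gene Mfsd2a at 3.17 and -0.49 and the transcriptional regulator gene Ifrd1 at 3.38 and -0.47. Immediate early genes had medians of 0.46 and 0.02 over 28 genes. Klf6 was at 1.72 and 0.04, Maff at 2.11 and 0.42 and Ccn1 at 1.49 and -0.25, yet Fos was at 0.15 and -0.36 and Jun at -0.08 and 0.37. Of the 12 genes named for the largest excess in null mouse 1, 7 had other probes, and 11 of 11 such probes were also higher in null mouse 1.

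Null mouse 2 stood above null mouse 1 in interferon, immune and stromal genes. Null mouse 2 was at least 1 above null mouse 1 for 825 genes (4.9%), and for 29 of 39 interferon response genes. These genes, antiviral effectors among them, answer the cytokines that cells release on infection or on sensing nucleic acid. Their median was -0.28 in null mouse 1 and 1.15 in null mouse 2, beside 0.79 and 0.11 in the mutant mice. Null mouse 2 was the higher for 39 of 39, where this held for 54.1% of all genes, and null mouse 1 was the higher for 45.9%. Oasl2, of the oligoadenylate synthetase family, was at 0.29 and 2.87, and Usp18, a brake on interferon signalling, at -0.80 and 2.58. Irf7, a transcription factor of the response, was at -0.52 and 1.84, Isg15, a ubiquitin-like modifier, at -0.13 and 1.64, and Ifit1, an RNA-binding effector, at -0.71 and 1.81. Both mice were above 0 for 13 of the 39 and below 0 for 0, beside 30.5% and 25.7% of all genes. Families such as Oas and Ifit have close copies whose probes may cross-bind.

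The interferon-stimulated response element GAAANNGAAA was found before 16 of 27 of these genes with a window (59.3%), against 3.2% of all tested genes, and the 5 of these with the highest ratio in null mouse 2 are shown. Capitals mark the element on either strand, and overlapping elements run together.
Ifit1: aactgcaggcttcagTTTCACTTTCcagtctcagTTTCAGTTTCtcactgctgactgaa
Isg15: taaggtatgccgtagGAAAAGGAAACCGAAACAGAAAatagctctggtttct
Oas1a: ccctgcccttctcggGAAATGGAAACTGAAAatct
Irgm2: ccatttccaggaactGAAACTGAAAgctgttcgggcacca
Trim30a: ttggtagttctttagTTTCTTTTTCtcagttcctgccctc
They are chr19:34640770-34640828, plus strand (Ifit1), chr4:156200860-156200911, minus strand (Isg15, with 3 overlapping elements), chr5:120907526-120907560, minus strand (Oas1a), chr11:58214898-58214937, plus strand (Irgm2) and chr7:104465205-104465244, minus strand (Trim30a), in GRCm38.p6. Oas1a was at -0.79 and 1.96, Irgm2 at -0.35 and 1.70 and Trim30a at 0.30 and 1.62. In null mouse 2, the 16 genes with the element had a median of 1.30 and the others had 0.60. In null mouse 1 the order was the reverse, at -0.36 with the element and -0.12 without.

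**Figure D4:**
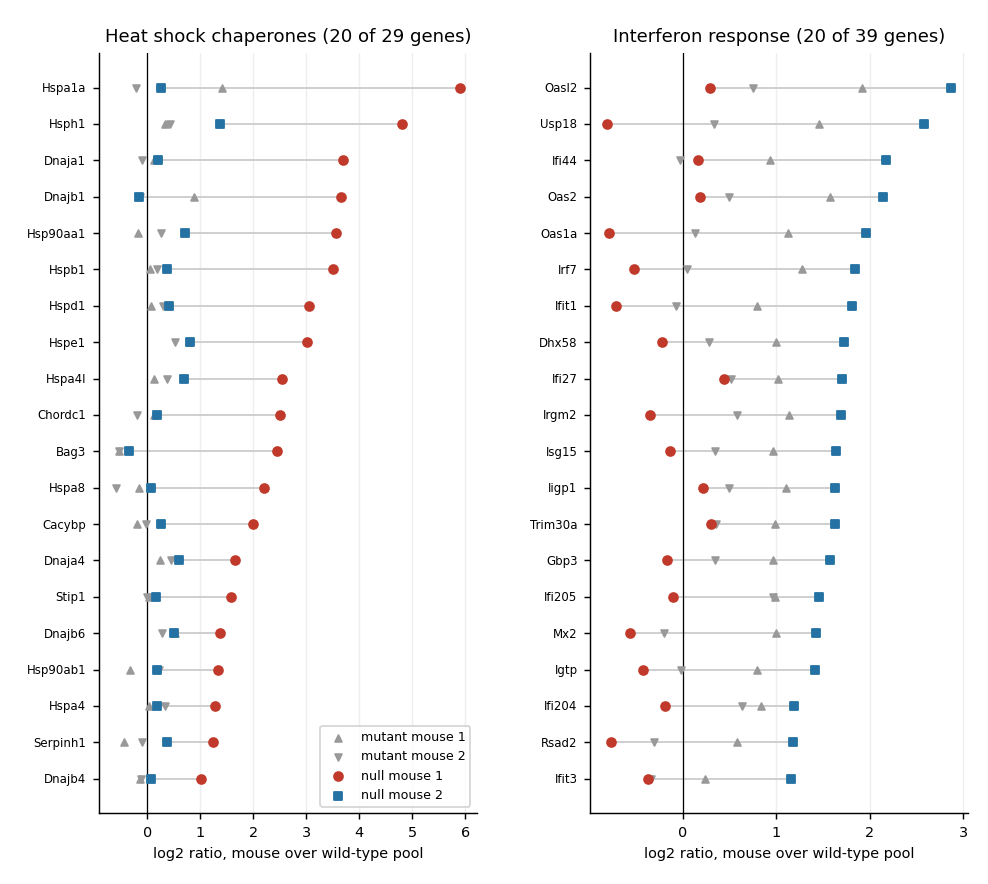
Each row is a gene and the x axis its log2 ratio over the pool, with null mouse 1 as red circles, null mouse 2 as blue squares and the mutant mice as grey triangles, for the 20 heat shock genes highest in null mouse 1 (left) and the 20 interferon genes highest in null mouse 2 (right). Heat shock genes reach 5.89 in null mouse 1 alone, and each interferon gene shown lies higher in null mouse 2 than in null mouse 1.

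Immune and stromal cell genes showed the same order. The 31 macrophage and myeloid genes had medians of -0.18 and 1.01, and null mouse 2 was the higher for 30, beside 54.1% of all genes. Adgre1, the macrophage marker F4/80, was at -0.37 and 1.72, the complement gene C1qa at -0.43 and 1.45, and the protease gene Ctss at 0.45 and 1.97. Complement genes had medians of -0.30 and 0.88 over 17 genes, with C3, the central component, at -1.75 and 1.97. The 28 fibroblast and matrix genes had medians of -0.46 and 0.82 and were higher in null mouse 2 for 28 of 28, beside 54.1% of all genes. Lum, a collagen-binding proteoglycan, was at -0.78 and 1.85, Fbln1, a matrix glycoprotein, at -0.69 and 1.85 and Col1a2, a chain of type I collagen, at -0.84 and 0.84. The 12 adipocyte genes had medians of -0.56 and 0.96, with the serum protease Cfd at -4.12 and 1.15 and the hormone gene Adipoq at -1.68 and 1.57, whose red channel in null mouse 1 was below background. The 16 smooth muscle genes had the opposite order, at 0.23 and -0.20, but 0.50 and 0.71 with median centring. With loess null mouse 1 was the higher for 16 of 16, beside 45.9% of all genes. In the mutant mice the fibroblast median was 0.42 and 0.49 and the macrophage median 0.49 and 0.39, between the null mice. What part the amounts of each cell type had in these values was not tested.

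Prostate secretory genes were low in null mouse 1 and close to the pool in null mouse 2. The 19 measured had medians of -1.18 and -0.14 (0.37 for null mouse 2 with median centring), and 10 were at least 1 below the pool in null mouse 1 against 3 in null mouse 2, beside 2.88% and 0.475% of all genes. The protease inhibitor gene Serpinb1b, at 1.63 and -0.15, was at least 1 above it in null mouse 1. The 3 at least 1 below the pool in null mouse 2 were Pate4, which is also in the seminal vesicle list, Wfdc15b and Clu. Sbp, the spermine-binding protein of prostate fluid, was at -4.17 and 0.09, Msmb, a major secreted protein of the gland, at -3.13 and -0.17, and Azgp1, a zinc-binding glycoprotein, at -2.30 and -0.31. Pbsn, probasin, whose promoter drives the Cre, was at 0.34 and -0.21, and Tgm4, the prostate transglutaminase, at -0.03 and -0.19. The lineage factor gene Hoxb13 was at -1.32 and 0.22.

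**Figure D5:**
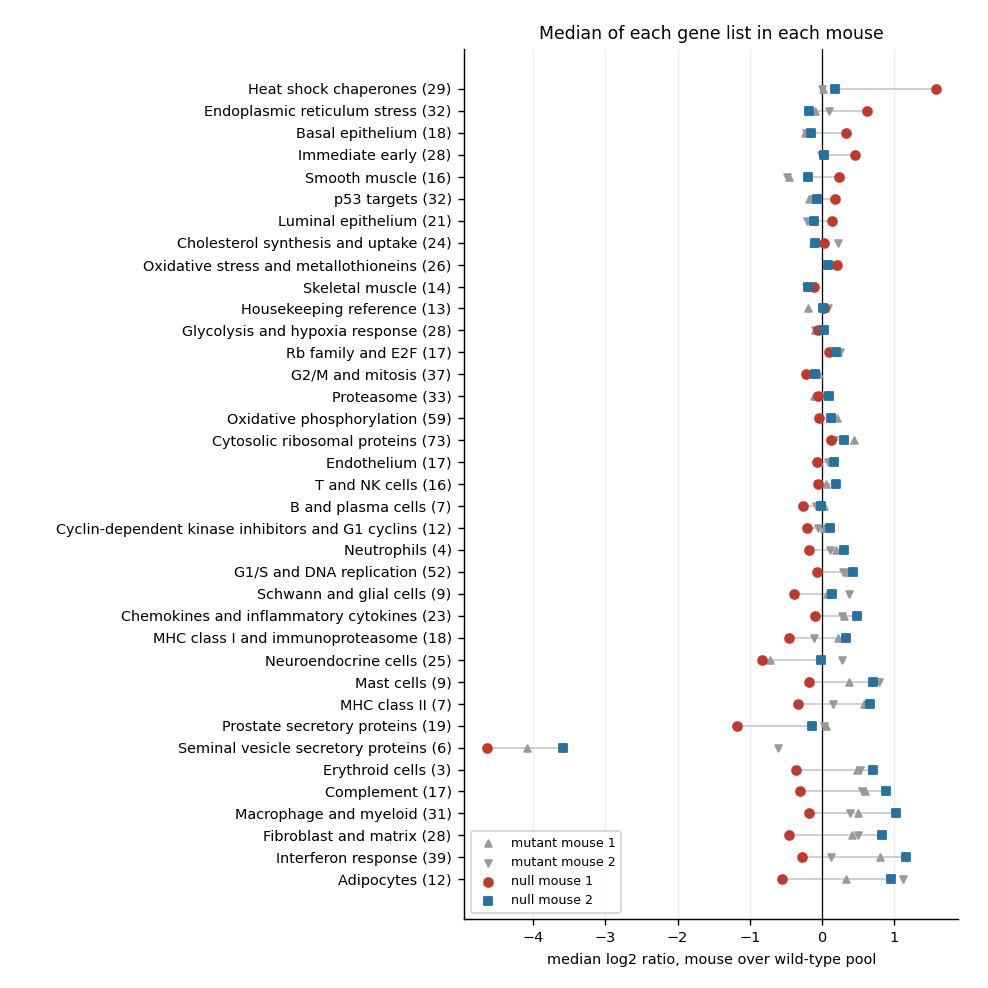
Each row is 1 of 37 gene lists with its number of measured genes, and the x axis is the median log2 ratio over the pool in null mouse 1 (red circle), null mouse 2 (blue square) and the mutant mice (grey triangles), ordered by null mouse 1 minus null mouse 2. Heat shock genes head the plot at 1.57 against 0.18, adipocyte and interferon genes end it, and the 6 seminal vesicle genes that passed the filter have medians below -3 in both null mice (-0.54 and -0.18 without the filter).

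Ribosomal protein genes were nearer to the pool, and null mouse 2 was above null mouse 1 for 60 of 73, where this held for 54.1% of all genes. The 73 measured had medians of 0.12 and 0.30. Both mice were above 0 for 48 and below 0 for 5, beside 30.5% and 25.7% of all genes. At an unadjusted limma p under 0.05, 14 were higher and 2 lower, beside 5.19% and 4.73% of all genes. With median centring the list's medians were 0.48 and 1.36, while the brightest of the 3 groups of genes had medians of 0.02 and 0.79. The 13 housekeeping reference genes had medians of 0.03 and 0.01, though Actb was at 1.02 and 0.16 and Hprt at 0.62 and 0.69.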

How the data were processed

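Prostate RNA of 2 null mice was measured on 2 arrays, each against 1 shared wild-type pool, with 2 mutant arrays in the same fit. The authors deposited scanner files with spot intensity as mean and processed signals and background medians, per the file headers; these name Agilent Feature Extraction 9.5.1.1, and the submitters' processing notes 8.5. Mean signals were corrected by normexp (offset 50) and normalised by loess in limma 3.58.1 (R 4.3.3), with control spots at weight 0 and outlier spots left out. A probe stayed if red signal exceeded background clearly in both mice of either genotype, or green signal did so on all 4 arrays. Values for 24852 probes remained, and the brightest probe stood for each of 16826 genes. Ratios were fitted with lmFit and eBayes with a term for each genotype, and the null mean was tested against 0 after Benjamini-Hochberg adjustment, at 0.05. The pool is 1 control sample, so the spread between wild-type mice is left out, and without a dye swap an unequal dye response stays in the values. All arrays came from 1 slide and scan. Array number limits the precision.

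The 38 gene lists, some of which share genes, and the other choices were made with earlier results of these data known. Named genes were the 12 highest and 12 lowest by the smaller of both null ratios on 1 side of 0, the 12 largest differences each way between the null mice, up to 4 members of a list by mean and 3 by difference, and Rb1, Trp53 and their relatives. Names came from the RefSeq table of GRCm38.p6 by accession for 22951 probes, by current symbol for 6659 and by older symbol for 3109, and from the files for 8455. Probe positions are those of the files (mm7), whose exon annotation was not used here. Some genes and 1 of the lists are not reported here.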

Additional observations from a re-analysis of the deposited data

Results flagged for a closer look

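Prostate secretory genes had medians below the pool in the null mice and close to the median of all genes in the mutant mice. Their median log2 ratio was -1.18 in null mouse 1 and -0.14 in null mouse 2, and 0.05 and 0.02 in mutant mice 1 and 2. Over all genes these medians were -0.01 and 0.03 in the null mice and 0.03 and 0.02 in the mutant mice. The mean of the null medians was lower than that of the mutant medians by 0.70 (-0.70 as null minus mutant). Null mouse 2 lay nearer to the mutant mice than to null mouse 1. The medians do not hold for each member. In mutant mice 1 and 2, Clu was at -2.74 and -1.35, Wfdc15b at -2.19 and -1.28 and Pate4 at -5.53 and -0.79. Of the 19 genes, 3 were at least 1 above the pool in mutant mouse 1 and 0 in mutant mouse 2, beside 430 and 103 of all 16826 genes. The difference of the list was not tested, and in limma 0 of 16826 genes differed between null and mutant at an adjusted p under 0.05 (332 at an unadjusted p under 0.05). Both genotypes share the pool, and with median centring null mouse 2 moved to 0.37.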

How the results depend on the processing

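The count of 0 genes past the threshold in limma was also 0 with Agilent processed signals, median centring, equal array spread, no filter on dim probes, the mean of probes, outlier spots kept and null arrays only. It was 2 with a normexp offset of 0 (Ms4a5, adjusted p = 0.0187, and Naip5, 0.0262) and 1 with the filter on the null arrays (Ms4a5, 0.0325), both genes lower. Over all settings Ms4a5 had adjusted p from 0.00479 to 0.369. At an unadjusted p under 0.05, median centring gave 1913 genes higher and 95 lower, 95.3% higher against 52.3% with loess. It left the median of all genes at 0.18, and at -0.04 and 0.50 in null mice 1 and 2. No filter gave 1286 lower among 27629 genes, and null arrays only 508 higher and 430 lower. Leaving out 1 mouse at a time gave 0 to 559 genes past the threshold, 508 to 1927 higher and 416 to 1990 lower. The 559 came from null mouse 1 as the lone null array, assumed to vary like the mutant mice, and 1 gene passed without null mouse 1. A fit with the replicate number as a replicate block gave 0 past the threshold, 877 higher and 728 lower. Mice of equal number share only a number: their deviations correlated at -0.0078 across genes. E2f1 reversed to -0.15 with processed signals, -0.067 with offset 0 and -0.0030 with the mean of probes, and Rbl2 to 0.052 with median centring. Without 1 null mouse, the estimates ran from -0.71 to 1.11 for Cdkn1a, -0.30 to 0.36 for E2f1, -0.87 to 0.093 for Rb1, -0.22 to 0.35 for Rbl1 and -0.58 to 0.11 for Rbl2. Other causes of these shifts were not tested. Null mouse 1 stayed on the same side of null mouse 2 for 36 of 38 list medians with processed signals and 29 with median centring, and for 38 under the other 6 settings. Without the filter, dim members brought the seminal vesicle medians to -0.54 and -0.18. Low red signal in null mouse 1 limits what can be seen of dim genes there.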

Other observations

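Epithelial genes were mixed in null mouse 1, where 12 of 21 luminal and 11 of 18 basal genes were above 0, against 4 of each in null mouse 2. Over all 16826 genes, 8288 were above 0 in null mouse 1 and 9353 in null mouse 2, so the counts of null mouse 2 lay further from those of all genes. The luminal keratin genes Krt8, Krt18 and Krt19 were at 1.30, 0.85 and 1.68 in null mouse 1 and at -0.39, -0.11 and -0.10 in null mouse 2, and the adhesion gene Cdh1 at 1.43 and 0.00. The protease inhibitor gene Spint1 was below the pool in both mice, at -0.91 and -0.64. So was the epithelial transcription factor gene Ehf by its brightest probe, at -0.75 and -0.55. Further Ehf probes were at -0.47 and 0.22 and at -0.32 and 0.20. Basal genes showed the same order, with Krt14 at 1.23 and -0.05, Krt17 at 1.98 and -0.25 and the basal transcription factor gene Trp63 at 0.98 and 0.22, yet Krt5 was at -0.38 and -0.05. List medians were 0.13 and -0.11 for 21 luminal and 0.33 and -0.15 for 18 basal genes. With median centring null mouse 2 was at 0.65 and 0.53 for these lists, and with the mean of probes the luminal median of null mouse 1 was -0.02.

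Mast cell proteases and nerve-associated genes also separated the mice. Cma1, a chymase, was at -0.93 and 2.20, Mcpt4 at -0.58 and 1.43 and Cpa3 at -1.25 and 2.06, whose red channel was below background in null mouse 1. Among 25 neuroendocrine genes the medians were -0.83 and -0.01, with Uchl1 at -2.20 and -0.14 and Chga at -0.74 and 0.46, and 13 were above background in null mouse 1 against 25 in null mouse 2. Among p53 targets, Trp53inp1 was at 2.69 and 0.09, Bbc3 at 1.02 and -0.09 and Mdm2 at -0.35 and -0.37, with list medians of 0.17 and -0.08 (0.42 with median centring) over 32 genes.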
